A study of Mus musculus with 2 samples.

Results

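The CD28 family and checkpoint genes are 10 mouse genes for receptors and ligands that raise or restrain the response of a T cell to antigen: Cd28, Ctla4, Icos, Pdcd1, Btla, Cd80, Cd86, Cd274, Lag3 and Havcr2. They were taken by the gene name that the array files give to each probe that is not a control, which yielded 13 probes of 55681 and 10 of 22221 named genes. They were measured in the mouse T-cell line P5424, derived from developing thymocytes, whose genotype label is a knockout of Rag2 and of P53 and whose treatment label is none. The medium of both samples was RPMI1640, to which serum and 2-mercaptoethanol had been added. Total RNA was hybridised to 2 one-colour arrays, replicate 1 and replicate 2, which form the only group, so no condition could be compared and no test between groups was possible. Whether the replicates came from separate cultures is not given in the labels, and their spread may be technical.

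The receptors of the CD28 family carry an immunoglobulin-like domain outside the cell and a short tail with tyrosines inside it. CD28 binds CD80 and CD86 on antigen-presenting cells and adds a second signal to that of the antigen receptor, and CTLA-4 competes for the same ligands and dampens it. ICOS is a further activating member, while PD-1 (Pdcd1) and BTLA recruit phosphatases and inhibit. PD-L1 (Cd274) is a ligand of PD-1. LAG-3 and TIM-3 (Havcr2) lie outside the family but are inhibitory receptors as well, best known from activated and chronically stimulated T cells, whereas CD28 is present on developing thymocytes.

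Detection follows the scanner software's mark for a signal well above background: a probe needed it on each of the arrays, and a gene needed 1 such probe. By this rule 6 of the 10 genes were detected (Cd28, Icos, Btla, Cd80, Cd274 and Lag3) and 4 were not (Ctla4, Pdcd1, Cd86 and Havcr2), beside 51.7% of all named genes. The members' share of genes is thus near that of the array as a whole. At the level of probes, 7 of the 13 were marked on both arrays and none on 1 array alone, beside 42.5% of all probes marked on replicate 1 and 41.2% on replicate 2. A gene that is not well above background has no level, only a bound. The mark began at 28.9 intensity units on the first array and 31.1 on the second, but it also depends on the spot, and unmarked probes reached up to 36.7 and 43.1 units. Fewer cells with a transcript and less transcript per cell cannot be told apart in such bulk RNA.

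The sequences below are stretches of 30 bases from 9 of the 60-base probes. They are shown because several probes of Icos and Cd80 gave different answers, because 4 probes (Cd28, the third Icos probe, Cd86 and Havcr2) hold AATAAA, the usual polyadenylation signal near the end of a messenger RNA, and because Pdcd1 lay between 2 criteria of detection. Capitals mark AATAAA or its variant ATTAAA, searched on the probe's own strand, and probes without either are shown from their first base. Probes of Icos and Cd80 are numbered along the chromosome.
Cd28: tgcttagcctgcAATAAAtatttattcatt
Icos probe 1: actctgtagaatATTAAAaattatgtttgt
Icos probe 2: tagaaccaacatgctctcttccaattccta
Icos probe 3: tcctgaacagccAATAAAtatgctttgtga
Cd80 probe 1: attaagtgtctcATTAAAtatggagatgct
Cd80 probe 2: aaaggagaggtgcctagtcttactgcaact
Cd86: agagtggatttcAATAAAgttttcttgaat
Havcr2: aatgttttaaagtAATAAAactgtactggc
Pdcd1: aaggaaagggggatataaccttgacgcaaa

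On the mouse build mm9, which the file headers name, these stretches lie at chr1:60830170-60830199 (Cd28), chr1:61052609-61052638, chr1:61055103-61055132 and chr1:61057130-61057159 (Icos), chr16:38479367-38479396 and chr16:38486772-38486801 (Cd80), all on the plus strand, at chr16:36603964-36603993 (Cd86, minus strand), chr11:46294705-46294734 (Havcr2, plus strand) and chr1:95935094-95935123 (Pdcd1, minus strand). Exon and UTR annotation of that build was not used here. Across the array 10.1% of the probes held AATAAA and 3.95% held ATTAAA, and 49.7% of the former were detected. Of the 4 AATAAA probes shown, those of Cd28 and Icos were detected and those of Cd86 and Havcr2 were not. A match to these letters is a description and does not show where a transcript ends.

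Cd28, the gene for the main costimulatory receptor, was detected well clear of background. Its probe starts at base 4257 of transcript NM_007642 (chr1:60830144-60830203) and gave 1022 intensity units on replicate 1 and 765 on replicate 2. Both arrays lay far above the negative control spots, whose medians were 6.55 and 7.50. On the log2 scale used from here on, where 0 is the 75th percentile of the array's probes, Cd28 had a value of 1.51 ± 0.21 (SD, n = 2).

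Ctla4, which encodes the inhibitory receptor for the same ligands, was not well above background. Its only probe (chr1:60971801-60971860, base 1057 of NM_009843) gave 6.38 and 7.24 units, just below the median of the negative controls on each array. The software's error was 100% of the signal on both.

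Icos, an activating receptor of helper T cells, was detected with 2 of its 3 probes. Probe 2 gave 141 units on replicate 1 and 124 on replicate 2, and probe 3 gave 185 and 132. Both are assigned to transcript NM_017480, start 2002 bases apart in the transcript and also 2002 bases apart in the genome, so no intron lies between them. Their values were -1.23 ± 0.05 and -0.99 ± 0.26 (SD, n = 2). Probe 1 is assigned to a separate Ensembl transcript (ENSMUST00000027162), lies 2.52 kb before probe 2 and gave 6.67 and 7.52 units, not well above background on either array. The Icos call therefore rests on the probes of NM_017480.

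Pdcd1 and Btla, the phosphatase-recruiting inhibitory receptors, differed in their call. Btla (chr16:45252905-45252964, base 3131 of NM_001037719) gave 292 units on replicate 1 and 386 on replicate 2, a value of 0.11 ± 0.37 (SD, n = 2). The Pdcd1 probe (chr1:95935064-95935123, base 1690 of NM_008798) gave 15.9 and 27.1 units. Both Pdcd1 spots were above the median of the negative controls but below the lowest signal marked well above background. The software's own p-value that the spot equals its background was 3.34e-09 and 2.88e-17, and it marked both as positive and significant. With that weaker criterion Pdcd1 would be detected and the count would be 7 of 10, beside 67.5% of named genes. Pdcd1 is the only member whose call turned to detected with it. In the authors' deposited log2 values Pdcd1 stood at 5.18 on replicate 1 and 5.17 on replicate 2, beside a median of 5.18 on each array.

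**Figure D1:**
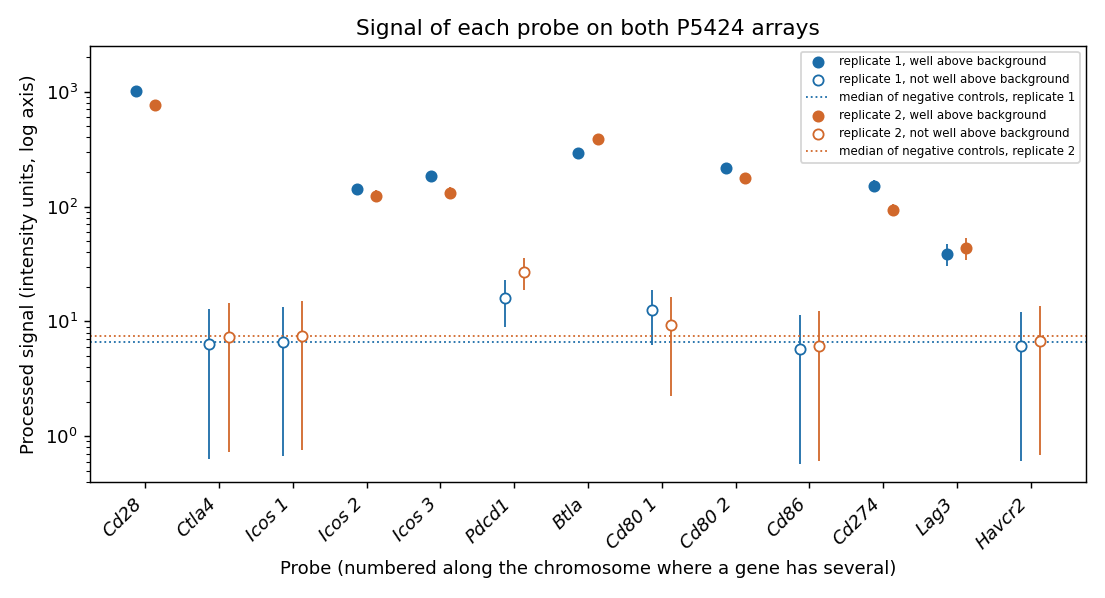
Processed signal of the 13 probes on both arrays, in intensity units on a log axis, with the scanner software's error as bars (lower ends are cut short where the error is as large as the signal). Filled points are well above background and open points are not. Cd28 lies at 1022 and 765, and Ctla4, Cd86 and Havcr2 lie next to or just below the dotted medians of the negative controls (6.55 and 7.50).

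Of the ligands for CD28 and CTLA-4, Cd80 was detected and Cd86 was not. Cd80 probe 2 (chr16:38486772-38486831, base 1457 of NM_009855) gave 216 units on replicate 1 and 178 on replicate 2, a value of -0.67 ± 0.11 (SD, n = 2). Cd80 probe 1 (chr16:38479343-38479402, base 872 of the same transcript) gave 12.5 and 9.31 units, not well above background, although both spots were positive and significant. The 2 Cd80 probes start 585 bases apart in the transcript and 7429 bases apart in the genome, so intron sequence lies between them. The single Cd86 probe (chr16:36603961-36604020, base 2473 of NM_019388) gave 5.73 and 6.14 units, below the median of the negative controls on both arrays.

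The disagreement of probes within Icos and Cd80 has a counterpart across the array. Of 6989 genes with 2 or more probes, 1582 (22.6%) had some probes detected and some not. Both members with several probes, Icos and Cd80, belong to that class. The other 8 members have 1 probe each, so their calls have no second probe to be set against. Under the stricter demand that no probe of a gene be missed, Icos and Cd80 lost their calls and the count fell to 4 of 10, beside 44.6% of named genes.

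Cd274, the gene for PD-L1, was detected while Pdcd1, its receptor gene, was not. Its probe (chr19:29462363-29462422, base 3416 of NM_021893) gave 152 units on replicate 1 and 94.1 on replicate 2, a value of -1.38 ± 0.41 (SD, n = 2). The signal on replicate 2 was below the brightest of the 308 negative control spots there (101 units), whereas on replicate 1 the brightest control spot reached 15.1 units.

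Lag3, which encodes a CD4-related receptor for MHC class II, was detected close to the limit. Its probe gave 38.8 units on replicate 1 and 43.4 on replicate 2, a value of -2.92 ± 0.20 (SD, n = 2). Against the brightest unmarked probes (36.7 and 43.1 units), Lag3 lay just past them on both arrays, and on replicate 2 it was also below the brightest negative control spot. The probe maps to chr6:124854570-124854866 on the minus strand, a span 237 bases longer than the 60-base probe, so it crosses a splice junction of NM_008479 in the files' own annotation. Havcr2, the gene for TIM-3, gave 6.07 and 6.80 units with its only probe (chr11:46294675-46294734, base 2642 of NM_134250), just below the medians of the negative controls.

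Cd28, Ctla4 and Icos sit side by side on chromosome 1, and detection differed within that cluster. The Ctla4 probe lies 142 kb beyond the Cd28 probe, and the first Icos probe a further 80.8 kb on. Cd28 and Icos, the activating receptors at its ends, were detected, and Ctla4, the inhibitory receptor between them, was not. A probe that the files assign to the Ensembl transcript ENSMUST00000130082, the RIKEN cDNA gene 2310016D23Rik, 30.4 kb beyond Cd28, gave 16.0 and 12.2 units and was not detected. A probe that the files do not name, 33.2 kb beyond the Ctla4 probe and on its opposite strand, gave 20116 and 25662 units, and whether it reads a transcript of this region was not tested.

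**Figure D2:**
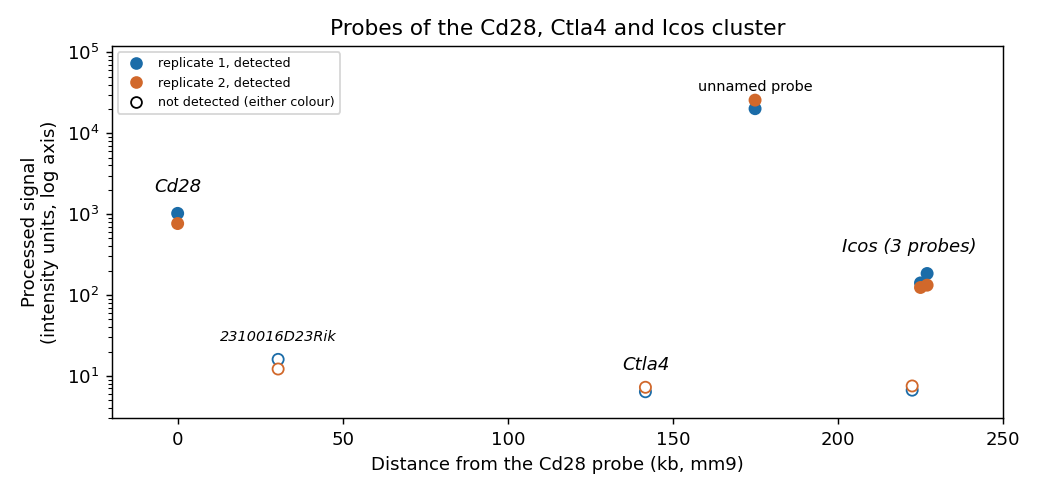
Signal of every probe placed from the Cd28 probe to the last Icos probe on chromosome 1, in intensity units on a log axis, against distance in kb. Cd28 and 2 of the 3 Icos probes are detected (filled), and Ctla4 at 6.38 and 7.24 units is not (open).

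Other members had well-known neighbours within 100 kb. Lag3 lies next to Cd4, the coreceptor to which LAG-3 is related in structure, and both Cd4 probes were detected, one of them with 17227 and 15353 units. Spsb2, Tpi1, Usp5, Cdca3, P3h3, Gpr162, Ptms, Mlf2, Cops7a and Pianp were detected around Lag3 as well, and Gnb3 and A230083G16Rik were not. On chromosome 19, Pdcd1lg2, which encodes PD-L2, the other ligand of PD-1, lies 83.1 kb beyond Cd274 and was detected with both of its probes. They gave 46.2 and 44.6 units on replicate 1 and 66.2 and 50.4 on replicate 2. On replicate 2 both were below the brightest negative control spot (101 units). On the other side of Cd274, Jak2, the kinase gene, was detected at 836 and 648 units, as were Insl6 and Plgrkt, while Rln1 was not. Around Pdcd1, Neu4 and Gal3st2c were not detected, whereas 6 of 10 probes for a region without a gene name were, with up to 509 and 528 units. Every probe whose label for that region ends in F was detected, the brightest among them. Most of those whose label ends in R were not. Near Cd80, Adprh, Timmdc1 and Poglut1 were detected and Pla1a was not. Near Havcr2, which was itself not detected, Med7 and Fam71b were detected and Gm12169 and Gm12171 were not. Atg3 near Btla and Rpl17-ps1 near Icos were detected.

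The 6 detected members differed between the arrays by less than 2-fold, where 0.783% of all detected genes were over 2-fold apart. Cd274 was 1.49-fold higher on replicate 1 (replicate 2 minus replicate 1, -0.58 on the log2 scale), and 5.07% of detected genes differed at least as much. Btla was 1.43-fold higher on replicate 2 (0.52), with 6.90% of genes as far apart. Cd28, Icos and Cd80 were also higher on replicate 1, by 1.23-, 1.28- and 1.12-fold, and Lag3 was higher on replicate 2 by 1.21-fold. The median absolute difference was 0.33 for the members and 0.16 for all detected genes. Against the errors that the software assigns to each spot, 2 of the 7 detected probes, those of Cd274 and Btla, were apart by over 2 combined errors (2.37 and 2.49), beside 14.0% of all detected probes printed once. The order of these differences depends on the processing. With the normexp background correction Cd274 was -0.28 apart and Btla 0.52. With each array set by its median Cd274 was still farthest apart at -0.80, followed by Icos at -0.59, and Btla was 0.29 apart. With 2 arrays of 1 group no gene could be tested, and no likeness of pattern between genes was computed.

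**Figure D3:**
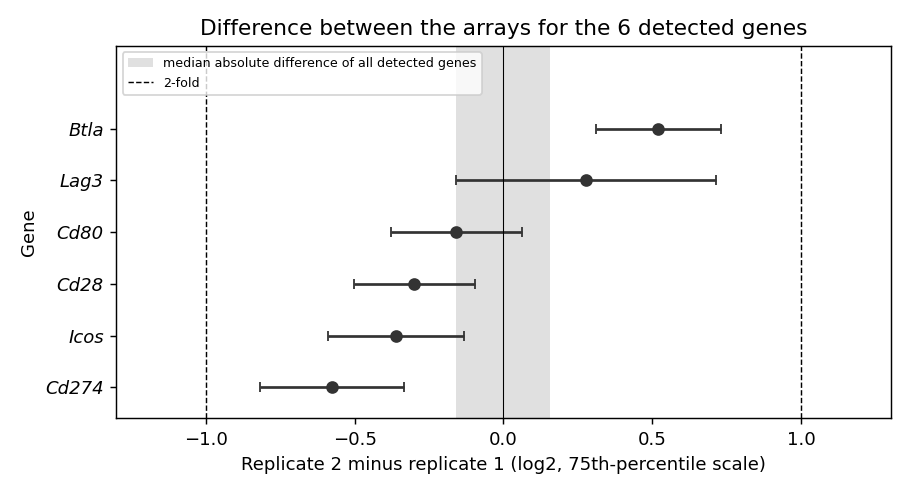
Replicate 2 minus replicate 1 on the log2 scale for the 6 detected genes, with the combined error that the scanner software gives as bars. Grey marks the median absolute difference of all detected genes (0.16) and dashed lines mark 2-fold. Cd274 (-0.58) and Btla (0.52) lie farthest out on this scale, and none reaches 2-fold.

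Receptors and their textbook ligands were then set side by side, in a list of 11 pairs drawn up after the values were seen. For single genes, 51.7% of all named genes were detected. Both sides were detected in 2 pairs, Cd28 with Cd80 and Btla with its ligand Tnfrsf14 (HVEM). Cd80 and Tnfrsf14 were each detected with 1 of 2 probes, so neither pair would stand with every probe required. Tnfrsf14 gave 51.3 units on replicate 1 and 60.2 on replicate 2, there below the brightest negative control spot (101 units). One side alone was detected in 8 pairs. The receptor alone was found for Icos with Icosl, Cd28 with Cd86, and Lag3 with Fgl1 and with H2-Aa, 1 chain of MHC class II. The ligand alone was found for Pdcd1 with Cd274 and with Pdcd1lg2, Ctla4 with Cd80, and Havcr2 with Lgals9. Neither side was detected in 1 pair, Ctla4 with Cd86. These are calls on RNA in a single cell line, and no binding was measured.

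**Figure D4:**
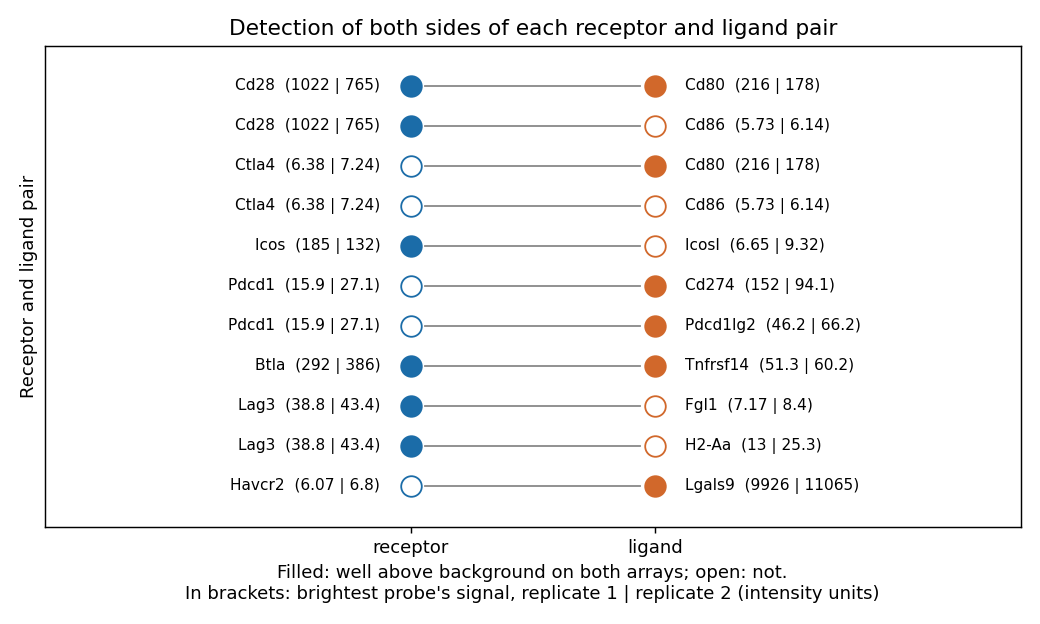
Detection of the receptor (left) and ligand (right) gene in each of 11 pairs. Filled circles are well above background on both arrays, open circles are not, and brackets give the signal of the gene's brightest probe on replicate 1 and replicate 2. Cd28 with Cd80 and Btla with Tnfrsf14 are filled on both sides, where Cd80 and Tnfrsf14 were each detected with 1 of 2 probes.

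Among other genes of the family and its ligands, 6 of 13 were detected, beside 51.7% of all named genes. Pdcd1lg2 had a value of -2.49 ± 0.45, Vsir (VISTA, an inhibitory family relative) -0.70 ± 0.12, Tnfrsf14 -2.49 ± 0.25 with 1 of its 2 probes, and Cd160, a further receptor for HVEM, 0.92 ± 0.55 (SD, n = 2 for each). Icosl, Cd276 (B7-H3) and Vtcn1 (B7-H4) were not well above background. Lgals9, named after its values were seen, had a value of 5.07 ± 0.19.

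Of 20 other costimulatory and checkpoint genes on the array, 10 were detected, beside 51.7% of all named genes. The gene lists given here overlap: Cd160, Cd2, Cd5, Lck, Tnfrsf18 and Foxp3 each stand in several. Their counts are therefore not counts of separate genes. Cd96, a receptor for nectin-like ligands, had a value of 2.03 ± 0.01, and Cd5, a negative regulator of receptor signalling in thymocytes, 0.33 ± 0.00 (SD, n = 2). Cd244a, a SLAM family receptor, was detected at 1.20 on replicate 1 and 0.09 on replicate 2, over 2-fold apart. Tigit, Cd226 and Pvr, which form an inhibitory receptor, its activating counterpart and their shared ligand, were not well above background.

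All 25 genes of the signalling machinery that serves these receptors were detected, beside 51.7% of all named genes. Many of them serve other receptors too. Named after their values were seen, these include Ptpn6 and Ptpn11, the SHP-1 and SHP-2 phosphatases that PD-1 and BTLA recruit, at 3.43 ± 0.06 and 4.93 ± 0.26. Pik3r1 and Grb2, which bind the CD28 tail, had 0.13 ± 0.20 and 4.63 ± 0.19. Lrba, which spares CTLA-4 from degradation, had 3.44 ± 0.12 with 2 of its 4 probes, and Cmtm6, which stabilises PD-L1 at the surface, 3.37 ± 0.05 (SD, n = 2 for each). With every probe required 22 of the 25 genes were detected, beside 44.6% of named genes.

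Of 24 transcriptional and post-transcriptional regulators known to act on checkpoint genes or T-cell activation, 17 were detected, again beside 51.7%. The NFAT factors, which are activated by calcium, were among them, with Nfatc1 at 0.81 ± 0.31, Nfatc2 at 3.06 ± 0.26 and Nfatc3 at 2.27 ± 0.02, as was the NF-kB subunit gene Nfkb1 at 0.94 ± 0.42 (SD, n = 2 for each). Nfatc2 and Nfkb1 were each detected with 1 of 2 probes. With every probe required 14 of the 24 regulators were detected, beside 44.6% of named genes. The immediate early gene Fos and Nr4a2 were not well above background, and Tox was found on 1 array.

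The labelled cell type was checked against marker genes. All 10 T-lineage markers were detected, and of 4 regulatory T-cell markers only Foxp3 was not, beside 51.7% of all named genes. Since Cd80 and Cd86 are best known from antigen-presenting cells, their markers are given beside the Cd80 result: 4 of 11 were detected, beside the same 51.7%. These were Csf1r at -1.61 ± 0.63 (2 of 3 probes), Cd14 at -2.76 ± 0.13, Cd79a at -2.74 ± 0.11 (1 of 2 probes) and Cd74, the invariant chain of MHC class II, at 2.24 ± 1.37 (SD, n = 2 for each). On replicate 2 Cd14 and Cd79a were below the brightest negative control spot (101 units), as was Il2ra among the regulatory T-cell markers. Cd79a was there also below the brightest unmarked probe (43.1 units). With a positive and significant signal 7 of the 11 would be detected, beside 67.5% of named genes. With every probe required 2 would be, beside 44.6%. Adgre1 was found on 1 array, and Lyz2, Itgax, Zbtb46, Ms4a1, Ciita and H2-Aa on neither. The summed signal of the list's brightest probes was 1032 units on replicate 1 and 3083 on replicate 2. Most of each sum came from Cd74 alone, which went from 1.27 to 3.20 on the log2 scale. Replicate 2 minus replicate 1 was 0.89 for Csf1r, 0.19 for Cd14 and -0.15 for Cd79a. Cd80 was 1.12-fold lower on replicate 2. The part of such cells in the Cd80 signal was not tested.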

How the data were processed

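The authors deposited 1 Agilent Feature Extraction 10.5.1.1 file per array, with intensity values from which, per the file headers, a fitted spatial background and a multiplicative trend had been removed and in which signals near background were replaced by surrogates. Which probes carry surrogates was not determined. For Ctla4, Cd86, Havcr2 and Icos probe 1 the software's error was 100% of the signal on both arrays. None of these probes was positive and significant on either array. Their units may be surrogates, and their place next to the negative controls is not a measured level. The files' p-values for a spot equal to its background are likewise the software's, as deposited. The authors' deposited log2 table of the same spots served as an alternative. Its scale matched the scanner values (slope 0.997 and 1.01 over spots well above background), its column medians were both 5.18, and any offset is unknown.

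Spots flagged as outliers were left out (182 and 186 of 59305). No spot was saturated. Where a probe had several spots their log2 signals were averaged, and each array was set to 0 at its 75th percentile (324 and 299 units). Genes with several detected probes take the brightest by mean. Genes were named through a RefSeq table of assembly GRCm38.p6, used for names only. In all, 42.5% and 41.2% of probes were well above background, and the number of arrays limits the precision. Intensities of different probes depend on the probe, so no level was ranked between genes. A combined error is the root sum of squares of both spots' relative errors on the log2 scale.

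Members and lists were chosen with earlier results of these data known. All 10 members are named with every probe. Of each other list, every gene of the smaller class (detected or not) is named where it has 5 or fewer, otherwise the first 4 detected and first 3 not detected, and neighbours are genes with a probe within 100 kb. Ceacam1 was the only list entry without a match by name and was not analysed here, and 1 planned antigen-presenting marker is not reported here. The alternatives were other detection criteria, scaling, background correction (limma 3.58.1, normexp with offset 50), probe summaries and leaving out either array. Scripts (Python 3.11.15) were tested on simulated data.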

Additional observations from a re-analysis of the deposited data

How the results depend on the processing

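The count of detected members was 6 with either array sufficing, with outlier spots kept, and with each replicate left out (the same genes each time). The share of named genes was then 54.3% with either array and 51.7% with outlier spots kept. It was 52.6% without replicate 1 and 53.4% without replicate 2. The count was 7 with a positive and significant signal, beside 67.5% of named genes, and 4 with every probe required, beside 44.6%. No member was over 2-fold apart under any of the 4 other scalings or backgrounds tried (0 of 6 each). On the main scale only 0.783% of all detected genes were that far apart. The shares under the other settings are not reported here, so 0 of 6 says little about these genes. No difference between the arrays changed sign, but with each array set by its median all detected genes shifted by -0.23 in the middle, which left Lag3 0.05 apart, Btla 0.29, Cd28 -0.53, Cd80 -0.39, Icos -0.59 and Cd274 -0.80. With normexp, Cd274 was -0.28 apart, Icos -0.20 and Lag3 0.12, and in the deposited log2 table Lag3 was 0.12 apart. The levels themselves belong to the scale: the percentile over detected probes moved all 6 by -3.51, the array median raised them by 3.99, and normexp raised Lag3 from -2.92 to -1.77. In the deposited log2 table all 6 moved by less than their SD. Antigen-presenting markers rose from 4 to 7 with a positive and significant signal and fell to 2 with every probe required, while no other list's count moved by over 1.5 times. No paired analysis was possible because the series has 1 group. Signal over background limits the calls of Lag3 and Pdcd1, which lie near the detection limit, and Ctla4, Cd86 and Havcr2 have no level.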
